A study of Mus musculus with 10 samples.

Results

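The 10 genes described here are the glucocorticoid receptor gene Nr3c1 and 9 genes known to be induced by that receptor, Fkbp5, Crispld2, Tsc22d3, Per1, Zbtb16, Klf9, Sgk1, Ddit4 and Fbxo32, measured by RNA sequencing in mouse peritoneal cavity macrophages. They are 10 of the 22165 genes in the deposited count table, and all 10 were among the 11614 genes with enough reads to be tested. The list was chosen from readout: Fkbp5 and Crispld2 stood out for their low values in knockout macrophages after IL-4, and the other 8 genes were added because they belong to the same hormone response. Values of all 10 genes in the knockout against wild-type comparison after IL-4, and values of Fkbp5 and Crispld2 in every comparison that uses the IL-4 libraries, are therefore given as descriptions with no test.

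The macrophages came from C57BL/6 mice. Knockout (KO) mice carried LysM-Cre together with Gls1 fl/fl, a floxed allele, and the animals called wild type (WT) carried Gls1 fl/fl without Cre. LysM-Cre is expressed from the Lyz2 locus of myeloid cells, so deletion of the floxed allele and the presence of Cre cannot be told apart in these groups. Mice received an intraperitoneal injection of either IL-4 complexed to an anti-IL-4 antibody or saline, called basal, and 36 h later the cavity was washed with 5 ml of PBS and cells stained for CD64, ICAM-2 and CD115 were sorted. There were 3 KO IL-4, 3 WT IL-4, 2 KO basal and 2 WT basal libraries. The labels do not say whether libraries of a group came from separate animals, so the p-values measure the spread between these libraries, which may be technical.

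Glucocorticoids are steroid hormones that enter the cell and bind the glucocorticoid receptor, which is held in the cytoplasm by heat-shock protein chaperones. The bound receptor moves to the nucleus, activates genes that carry its palindromic response elements and dampens inflammatory genes driven by NF-kB and AP-1. Fkbp5 encodes a co-chaperone that lowers the receptor's affinity for hormone and so closes a feedback loop, and Fkbp5, Tsc22d3, Per1, Zbtb16 and Klf9 are widely used readouts of glucocorticoid exposure. In macrophages glucocorticoids favour an anti-inflammatory state, and several of these genes also respond to insulin and FOXO signalling, to the circadian clock or to nutrient stress.

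The 250 bases upstream of the annotated start are printed for the 4 genes whose window held an E-box. These are Fkbp5 and Crispld2, which prompted the list, Per1 (its annotated start 1), which was higher after IL-4 in both genotypes, and Sgk1 (its annotated start 5), the sole member window with a palindromic receptor element. The sequences are from RefSeq on GRCm38.p6, read 5′ to 3′ along the gene's own strand. Capitals mark the motif matches, which are the E-box CACGTG bound by clock and MYC-family factors, and, in Sgk1, also the receptor half-site AGAACA, read as TGTTCT on the other strand, and the palindromic element, whose matched letters were GAACAGAATGTTC. The windows are chr17:28486150-28486399 on the minus strand for Fkbp5, chr8:119992188-119992437 on the plus strand for Crispld2, chr11:69098699-69098948 on the plus strand for Per1 and chr10:21993640-21993889 on the plus strand for Sgk1.
Fkbp5: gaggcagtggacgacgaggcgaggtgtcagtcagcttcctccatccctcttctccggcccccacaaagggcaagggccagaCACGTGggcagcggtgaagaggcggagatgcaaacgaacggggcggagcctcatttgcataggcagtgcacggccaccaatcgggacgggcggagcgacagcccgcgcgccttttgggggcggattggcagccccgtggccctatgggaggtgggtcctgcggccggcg
Crispld2: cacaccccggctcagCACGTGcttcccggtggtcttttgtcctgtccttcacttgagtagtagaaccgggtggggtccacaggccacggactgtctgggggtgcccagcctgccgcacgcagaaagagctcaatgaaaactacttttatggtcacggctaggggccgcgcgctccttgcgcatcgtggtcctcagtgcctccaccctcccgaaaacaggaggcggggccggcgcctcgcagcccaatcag
Per1: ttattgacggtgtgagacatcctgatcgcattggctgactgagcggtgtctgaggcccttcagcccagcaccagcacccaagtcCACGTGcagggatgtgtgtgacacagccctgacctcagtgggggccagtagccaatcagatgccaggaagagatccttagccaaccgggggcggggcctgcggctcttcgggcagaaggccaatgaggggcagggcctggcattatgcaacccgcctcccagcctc
Sgk1: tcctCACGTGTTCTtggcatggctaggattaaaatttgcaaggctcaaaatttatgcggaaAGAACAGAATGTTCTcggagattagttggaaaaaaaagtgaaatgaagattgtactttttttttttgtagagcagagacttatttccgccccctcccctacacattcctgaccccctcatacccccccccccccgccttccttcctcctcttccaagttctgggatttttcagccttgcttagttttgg

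RefSeq promoter windows, of 300 bases from 250 before to 50 after a start, were found for 7 of the 10 genes and numbered 15 in all. Nr3c1, Zbtb16 and Fbxo32 had no entry. Of 6 motifs searched on both strands, the E-box CACGTG lay in 1 window each of Fkbp5, Crispld2, Per1 and Sgk1, that is in 4 of 15 windows, against 7.15% of the 32851 windows of all genes. Counted from the start, it lies at -169 to -164 in Fkbp5, -235 to -230 in Crispld2, -166 to -161 in Per1 and -246 to -241 at start 5 of Sgk1, where it overlaps a half-site. The palindromic receptor element GNACANNNTGTNC was found in 1 of 15 windows, that of Sgk1, from -188 to -176 and overlapping 2 half-sites, against 0.475% of all windows. The half-site AGAACA lay in 4 windows, 3 of Sgk1 and 1 of Tsc22d3, against 19.0% of all windows. The FOXO element GTAAACA lay in 1 window, from -100 to -94 in Klf9, against 3.65% of all windows. No member window held the cAMP response element TGACGTCA, found in 1.79% of all windows, or the STAT6-type element TTCNNNNGAA, found in 6.95%. A match describes letters in the window and not a bound site. Sequence outside these windows and other forms of each motif were not searched. A window without a match therefore does not show that the gene lacks such an element.

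Libraries held 8762403 to 15024073 counts. Values below are in CPM, read counts relative to the TMM-scaled library total. Log2 differences are from the fit, with their standard error after the ± sign. After a mean CPM, ± gives the SD between libraries. Lyz2, the gene at the Cre locus, ranged from 2845 to 4096 CPM in KO IL-4, 5912 to 7046 CPM in WT IL-4, 2664 to 9675 CPM in KO basal and 21903 to 23599.7 CPM in WT basal libraries. The macrophage genes Adgre1 (559 to 885 CPM), Csf1r (248 to 368 CPM), Icam2 (275 to 1154 CPM) and Fcgr1, which encodes CD64 (7.99 to 37.5 CPM), were present in all 10 libraries.

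Markers of other cells differed between the groups. KO basal libraries lay above all others in the B cell, mast cell, T and NK cell and eosinophil sums. WT basal libraries lay below all others in the B cell sum and in that of small macrophages, monocytes and dendritic cells. The summed level of 10 B cell markers was 1366 ± 224 CPM in KO basal libraries (1207 to 1524) and 182 ± 66.4 CPM in WT basal libraries (135 to 229). After IL-4 it was 412 ± 58.0 CPM in KO IL-4 (355 to 471) and 421 ± 27.95 CPM in WT IL-4 libraries (389 to 442). All 10 B cell markers were higher in KO basal than in WT basal libraries past the threshold, as were 2.61% of all tested genes. Mast cell markers summed to 41.1 ± 4.62 CPM in KO IL-4, 44.8 ± 6.85 CPM in WT IL-4, 249.5 ± 90.3 CPM in KO basal and 107 ± 35.0 CPM in WT basal libraries. Most of both IL-4 sums was Hdc. In the same order of groups Cma1 averaged 0.430, 0.426, 61.8 and 8.68 CPM, and Cpa3 0.527, 0.753, 54.1 and 5.80 CPM. T and NK cell markers summed to 33.1 ± 2.80 CPM in KO IL-4, 38.8 ± 3.71 CPM in WT IL-4, 107 ± 6.97 CPM in KO basal and 33.8 ± 14.4 CPM in WT basal libraries. Most of each of these sums was Cd2, at 20.9, 20.2, 83.4 and 20.3 CPM in the same order. Summed markers of dendritic cells, monocytes and small peritoneal macrophages were 1824 ± 28.8 CPM in KO IL-4, 2262 ± 211 CPM in WT IL-4, 1558 ± 317 CPM in KO basal and 544 ± 251 CPM in WT basal libraries. Cd74, H2-Aa and H2-Ab1 made up most of this sum in each group. Large peritoneal macrophage markers summed to 5045 ± 405 CPM in KO IL-4, 5078 ± 552 CPM in WT IL-4, 6402 ± 201 CPM in KO basal and 6809 ± 681 CPM in WT basal libraries. Their ranges overlapped between KO and WT in both states. Neutrophil markers summed to between 134 and 361 CPM per library, with Ly6g, Camp and Ngp at 0 in both basal groups. Eosinophil markers summed to 13.0 ± 4.05 CPM in KO IL-4, 8.51 ± 4.39 CPM in WT IL-4, 40.8 ± 7.27 CPM in KO basal and 7.27 ± 1.07 CPM in WT basal libraries. Epx and Prg2 were at 0 in every library. Mesothelial and fibroblast markers summed to at most 4.06 CPM with 6 to 8 of 10 genes at 0 in each group. In these bulk libraries fewer cells of a type and less RNA per cell cannot be told apart, and the part of other cells in the results below was not tested.

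**Figure D1:**
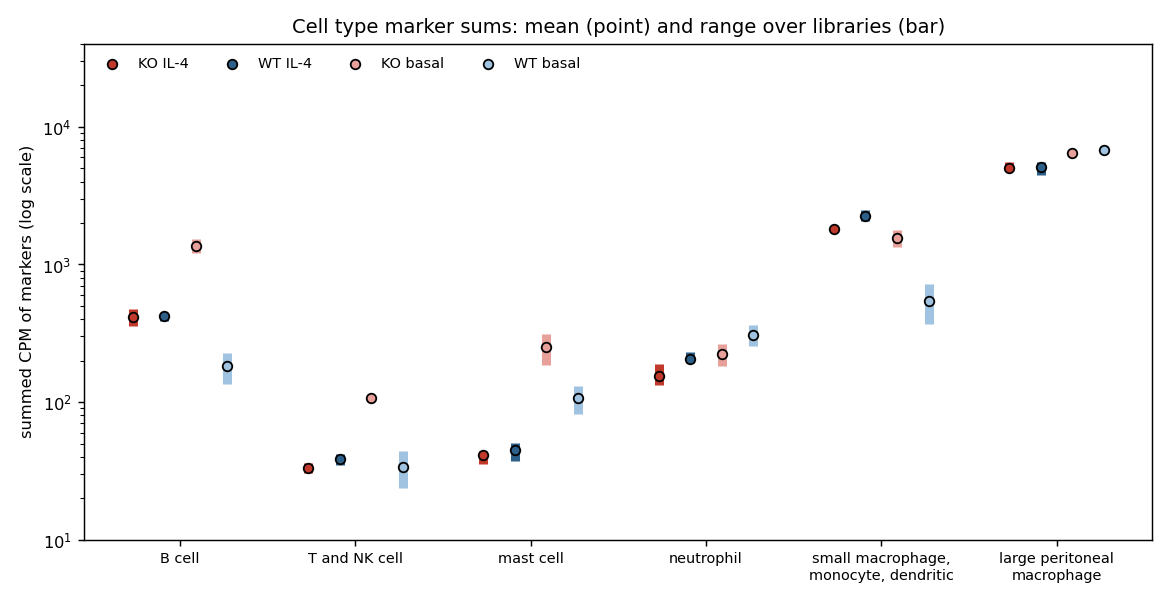
Summed CPM of 6 cell type marker lists (log axis) with groups from left to right in the order KO IL-4, WT IL-4, KO basal and WT basal; points are group means and bars the range over libraries. B cell markers averaged 1366 CPM in KO basal and 182 CPM in WT basal libraries, while large peritoneal macrophage markers lay between 4486 and 7290 CPM in every library.

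The receptor itself, Nr3c1 (ENSMUSG00000024431, chr18:39410545-39519421, minus strand, GENCODE M21 on mm10, as are all gene coordinates here), varied little between the groups. It had 176, 182 and 208 CPM in KO IL-4, 163, 152 and 199 CPM in WT IL-4, 231 and 190.3 CPM in KO basal, and 192 and 234 CPM in WT basal libraries. Neighbouring groups in the order of its means overlapped throughout. The basal difference between KO and WT was -0.02 ± 0.24 on the log2 scale (edgeR quasi-likelihood test, adjusted p = 0.982). The IL-4 effect was -0.16 ± 0.21 in KO (adjusted p = 0.715) and -0.32 ± 0.21 in WT (adjusted p = 0.427), and the interaction, the IL-4 effect in KO minus that in WT, was 0.16 ± 0.30 (adjusted p = 0.863). None of the 4 tests passed, which does not show that the levels were equal.

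Fkbp5 (ENSMUSG00000024222, chr17:28399094-28517527, minus strand), the co-chaperone of the feedback loop, had its highest values in WT macrophages after IL-4 and its lowest in WT macrophages without it. It had 12.2, 9.37 and 10.1 CPM in KO IL-4, 61.4, 57.0 and 56.8 CPM in WT IL-4, 19.5 and 41.9 CPM in KO basal, and 1.61 and 6.08 CPM in WT basal libraries. No 2 groups overlapped, and the means fell in the order WT IL-4, KO basal, KO IL-4 and WT basal. In basal macrophages Fkbp5 rose in KO relative to WT by 2.99 ± 0.49 on the log2 scale, or 7.92-fold (edgeR quasi-likelihood test, adjusted p = 0.00260, higher in 2 of 2 KO libraries). This difference passed in each of the 10 fits that left out 1 library. Its size depended on single basal libraries: it was 2.35 without WT basal library 1, 4.25 without WT basal library 2 and 2.32 without KO basal library 2.

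The IL-4 libraries gave the opposite order for Fkbp5. As a description, KO IL-4 libraries were 5.54-fold lower than WT IL-4 libraries (log2 -2.47 ± 0.38). The difference between IL-4 and basal libraries was -1.55 ± 0.40 in KO and 3.91 ± 0.49 in WT (15.04-fold), and the IL-4 effect in KO minus that in WT was -5.46 ± 0.62. Without KO basal library 2 the KO difference became -0.88, and without WT basal library 2 the WT difference became 5.17 and the interaction -6.73.

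Crispld2 (ENSMUSG00000031825, chr8:119992438-120052793, plus strand) encodes a secreted protein that binds bacterial lipopolysaccharide and is induced by glucocorticoids in human airway smooth muscle. It was high in 1 group alone. It had 3.05, 2.30 and 1.68 CPM in KO IL-4, 39.2, 32.8 and 31.6 CPM in WT IL-4, 3.89 and 4.83 CPM in KO basal, and 2.08 and 4.37 CPM in WT basal libraries. The WT IL-4 libraries stood above all others, while the KO basal libraries overlapped the WT basal libraries and those overlapped the KO IL-4 libraries. Unlike Fkbp5, its basal difference between KO and WT did not pass, at 0.43 ± 0.40 (edgeR quasi-likelihood test, adjusted p = 0.643). As a description, KO IL-4 libraries were 14.8-fold lower than WT IL-4 libraries (log2 -3.89 ± 0.34), the IL-4 difference was -0.91 ± 0.37 in KO and 3.41 ± 0.39 in WT (10.6-fold), and the interaction was -4.32 ± 0.53. Without WT basal library 2 the WT difference became 4.05 and the interaction -4.96.

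**Figure D2:**
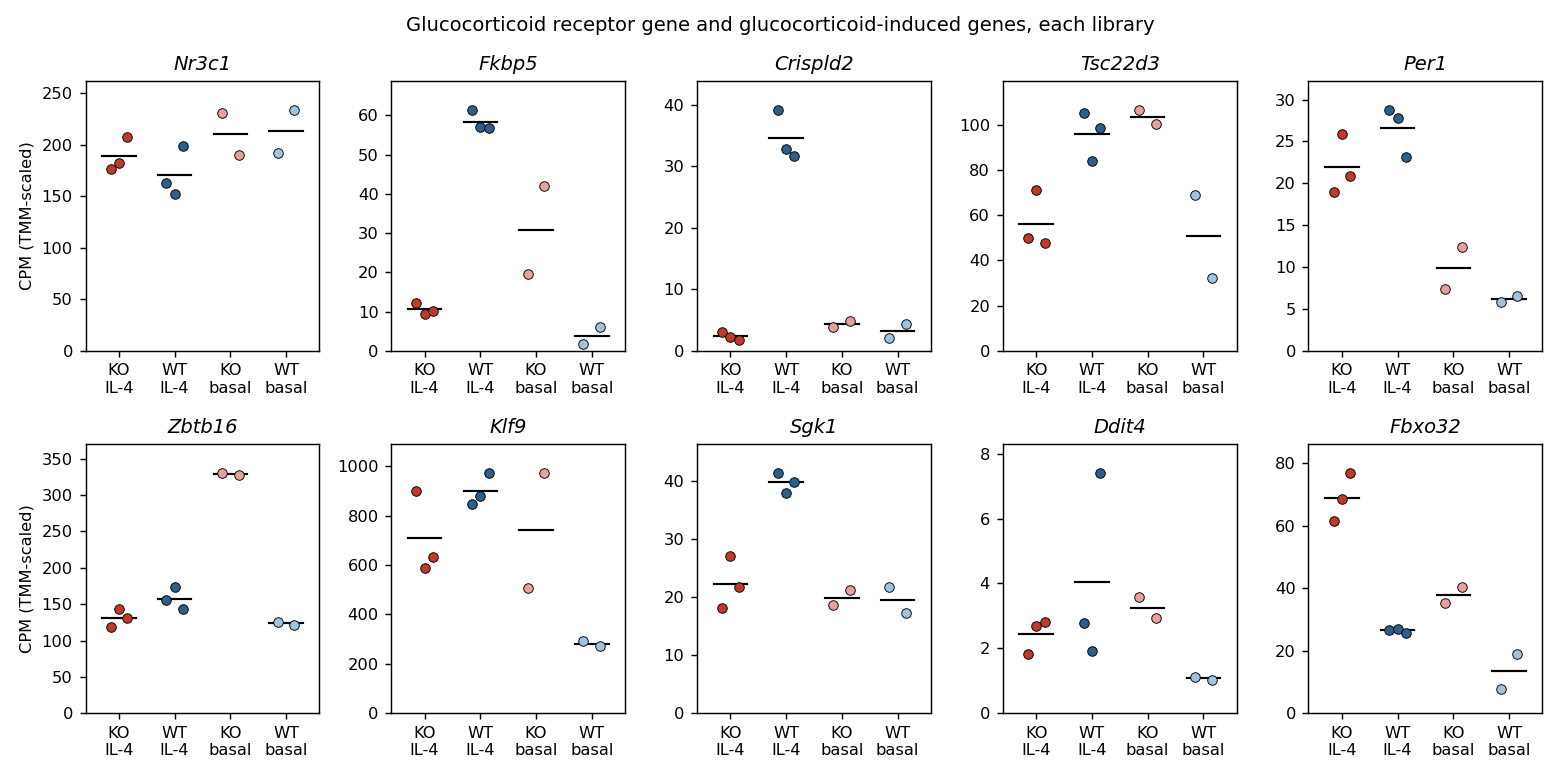
CPM of each of the 10 genes in every library (linear axis from 0, scaled per gene), with groups in the order KO IL-4, WT IL-4, KO basal and WT basal; each point is 1 library and the line is the group mean. Fkbp5 and Crispld2 are highest in WT IL-4 libraries, at 56.8 to 61.4 and 31.6 to 39.2 CPM, Zbtb16 in KO basal libraries, at 328 and 331 CPM, and Fbxo32 in KO IL-4 libraries, at 61.6 to 77.1 CPM.

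The transcriptional regulators among the induced genes differed in their patterns. Klf9 (ENSMUSG00000033863, chr19:23141226-23168134, plus strand), a Krüppel-like factor, was the most abundant of the 10 genes per kilobase of exon in every group. It averaged 147 ± 35.2 CPM per kb in KO IL-4, 187 ± 13.8 in WT IL-4, 154 ± 67.8 in KO basal and 58.5 ± 3.05 in WT basal libraries. It had 901, 588 and 632 CPM in KO IL-4, 846, 877 and 974 CPM in WT IL-4, 509 and 971 CPM in KO basal, and 292 and 271 CPM in WT basal libraries. The WT basal libraries lay below all others, and the other 3 groups overlapped. Klf9 rose in KO relative to WT basal macrophages by 1.39 ± 0.29, or 2.63-fold (edgeR quasi-likelihood test, adjusted p = 0.0121), a call lost without KO basal library 2 (0.85, adjusted p = 0.190) or WT basal library 2 (1.34, adjusted p = 0.0842). After IL-4 it did not differ detectably from basal in KO (-0.07 ± 0.26, adjusted p = 0.917) and rose in WT by 1.68 ± 0.28, or 3.19-fold (adjusted p = 0.00250, kept in all 10 fits without 1 library). The interaction was -1.74 ± 0.37 (adjusted p = 0.0167), lost without KO basal library 2 (-1.20, adjusted p = 0.124) or WT basal library 2 (-1.69, adjusted p = 0.0618).

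Zbtb16 (ENSMUSG00000066687, chr9:48654297-48836222, minus strand) encodes the zinc finger repressor PLZF, which is also a defining factor of innate-like T cells. It had 119, 144 and 131 CPM in KO IL-4, 155, 173 and 143 CPM in WT IL-4, 331 and 328 CPM in KO basal, and 125 and 122 CPM in WT basal libraries. The KO basal libraries alone stood apart, and the other groups overlapped with their neighbours in the order of means. Zbtb16 rose in KO relative to WT basal macrophages by 1.41 ± 0.22, or 2.67-fold (edgeR quasi-likelihood test, adjusted p = 0.00175). After IL-4 it fell in KO by 1.33 ± 0.20 on the log2 scale relative to KO basal (adjusted p = 0.000650), while the WT difference of 0.35 ± 0.20 did not pass (adjusted p = 0.357). The interaction was -1.68 ± 0.29 (adjusted p = 0.00459). All 3 calls were kept in each of the 10 fits without 1 library. The summed T and NK cell markers were highest in the same libraries, at 103 and 112 CPM in KO basal and 23.6 and 44.0 CPM in WT basal libraries. Most of that sum was Cd2, at 83.4 ± 1.47 CPM in KO basal and 20.3 ± 9.46 CPM in WT basal libraries. Of 9 tested T and NK cell markers 8 were positive for KO minus WT basal, and 1, Cd2, was called. Their part in the Zbtb16 difference was not tested.

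Tsc22d3 (ENSMUSG00000031431, chrX:140539528-140600659, minus strand) encodes GILZ, a leucine zipper protein that binds NF-kB and mediates part of the anti-inflammatory action of glucocorticoids. It had 49.8, 71.0 and 47.7 CPM in KO IL-4, 105, 84.1 and 98.6 CPM in WT IL-4, 107 and 100.3 CPM in KO basal, and 69.1 and 32.2 CPM in WT basal libraries. KO basal overlapped WT IL-4 at the top and KO IL-4 overlapped WT basal at the bottom, so KO libraries lay below WT after IL-4 and above WT with saline. The basal difference between KO and WT was 1.03 ± 0.33 (edgeR quasi-likelihood test, adjusted p = 0.0953), and the IL-4 difference was -0.88 ± 0.29 in KO (adjusted p = 0.0813) and 0.92 ± 0.31 in WT (adjusted p = 0.0852). None of those 3 passed, but the interaction did, at -1.80 ± 0.42 (adjusted p = 0.0294). That call held in 4 of 10 fits without 1 library. The adjusted p was 0.0946 and 0.0743 without KO basal library 1 and 2, 0.0594 without KO IL-4 library 3, 0.116 without WT basal library 2, and 0.0852 and 0.0654 without WT IL-4 library 1 and 3. Without WT basal library 1 the interaction was -2.47 (adjusted p = 0.00692).

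Per1 (ENSMUSG00000020893, chr11:69095217-69109960, plus strand), a repressor of the circadian clock, rose after IL-4 in both genotypes. It had 19.0, 25.9 and 20.8 CPM in KO IL-4, 28.8, 27.8 and 23.2 CPM in WT IL-4, 7.35 and 12.3 CPM in KO basal, and 5.76 and 6.59 CPM in WT basal libraries. Every IL-4 library was above every basal library. The IL-4 effect was 1.15 ± 0.30, or 2.22-fold, in KO (edgeR quasi-likelihood test, adjusted p = 0.0286) and 2.10 ± 0.31, or 4.30-fold, in WT (adjusted p = 0.00120). The KO call was lost without KO basal library 1 (0.83, adjusted p = 0.271) or KO IL-4 library 2 (1.01, adjusted p = 0.0640), and the WT call was kept in all 10 fits. The interaction of -0.95 ± 0.42 did not pass (adjusted p = 0.283), nor did the basal difference between KO and WT of 0.68 ± 0.33 (adjusted p = 0.302).

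The kinase, stress and ubiquitin ligase genes each behaved differently. Sgk1 (ENSMUSG00000019970, chr10:21882184-21999903, plus strand) is a serine kinase that regulates ion transport and FOXO factors. It had 18.2, 27.0 and 21.7 CPM in KO IL-4, 41.4, 37.8 and 39.8 CPM in WT IL-4, 18.6 and 21.2 CPM in KO basal, and 21.7 and 17.2 CPM in WT basal libraries. The WT IL-4 libraries stood above the other 3 groups, which overlapped. Sgk1 rose after IL-4 in WT by 1.03 ± 0.26, or 2.04-fold (edgeR quasi-likelihood test, adjusted p = 0.0294), against 0.17 ± 0.26 in KO (adjusted p = 0.755). The interaction was -0.86 ± 0.36 (adjusted p = 0.264), so a difference between the genotypes in the IL-4 effect was not shown. The WT call was lost without WT IL-4 library 1, 2 or 3 (adjusted p = 0.0802, 0.0661 and 0.0821) and without WT basal library 1 or 2 (adjusted p = 0.0691 and 0.215). The basal difference between KO and WT was 0.03 ± 0.28 (adjusted p = 0.974).

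Ddit4 (ENSMUSG00000020108, chr10:59949669-59951834, minus strand), which encodes REDD1, an inhibitor of mTORC1 induced by stress and glucocorticoids, was the lowest of the 10 genes in CPM in KO basal and WT basal libraries. It had 1.83, 2.69 and 2.80 CPM in KO IL-4, 2.79, 1.93 and 7.41 CPM in WT IL-4, 3.57 and 2.95 CPM in KO basal, and 1.13 and 1.03 CPM in WT basal libraries. The WT basal libraries lay below all others, and WT IL-4 library 3 stood apart from its group. No test passed. The basal difference between KO and WT was 1.58 ± 0.71 (edgeR quasi-likelihood test, adjusted p = 0.259). The IL-4 difference was -0.41 ± 0.61 in KO (adjusted p = 0.745) and 1.88 ± 0.67 in WT (adjusted p = 0.114), and the interaction was -2.29 ± 0.90 (adjusted p = 0.223). At this depth the standard errors of 0.55 to 0.90 were the widest among the 10 genes.

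Fbxo32 (ENSMUSG00000022358, chr15:58175879-58214932, minus strand), which encodes atrogin-1, a ubiquitin ligase subunit induced by FOXO factors and glucocorticoids in muscle atrophy, was the 1 of the 10 genes whose KO IL-4 libraries all lay above the WT IL-4 libraries. It had 61.6, 68.5 and 77.1 CPM in KO IL-4, 26.7, 27.1 and 25.8 CPM in WT IL-4, 35.4 and 40.4 CPM in KO basal, and 7.93 and 18.9 CPM in WT basal libraries. No 2 groups overlapped. Fbxo32 rose in KO relative to WT basal macrophages by 1.49 ± 0.34, or 2.82-fold (edgeR quasi-likelihood test, adjusted p = 0.0202). That call was lost without KO basal library 1 (adjusted p = 0.0635), KO basal library 2 (adjusted p = 0.110) or WT basal library 1 (1.01, adjusted p = 0.111), while without WT basal library 2 the difference was 2.25 (adjusted p = 0.00215). The IL-4 difference was 0.87 ± 0.30 in KO (adjusted p = 0.0992) and 0.98 ± 0.31 in WT (adjusted p = 0.0768), and the interaction was -0.12 ± 0.42 (adjusted p = 0.937). As a description, KO IL-4 libraries were 2.60-fold higher than WT IL-4 libraries (log2 1.38 ± 0.27). Of the 10 genes it alone shared exon sequence with another annotated gene, 186 of 6976 bases with the antisense gene Gm15943, and since the strand setting of the counting is not given, reads from the overlap cannot be assigned.

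Seen by comparison, the 10 genes were mostly higher in KO basal than in WT basal libraries. In that comparison, which shares no library with the one that prompted the list, 4 of 10 rose (Fkbp5, Zbtb16, Klf9 and Fbxo32) and 0 of 10 fell at an adjusted p under 0.05 (edgeR quasi-likelihood test). Of all tested genes 2.61% rose and 1.53% fell. The count was 2 of 10 without KO basal library 2. Tsc22d3, Per1 and Ddit4 were also above WT in both KO libraries without passing. Thus 7 of 10 genes had KO basal libraries wholly above and 0 wholly below the WT basal libraries, where 23.7% of all tested genes were wholly above and 24.5% wholly below. The median difference of the 10 genes was 1.21, against -0.02 over all tested genes. The called genes of this comparison leaned to higher in KO (63.0%), and the lean was 79.3% when library totals replaced TMM factors and 43.9% without the filter on low counts. Crispld2, Sgk1 and Nr3c1 overlapped between the groups. Summed B cell markers (1366 CPM in KO basal and 182 CPM in WT basal libraries) and small macrophage, monocyte and dendritic cell markers (1558 CPM in KO basal and 544 CPM in WT basal libraries) moved in the same direction, and their part was not tested. Most of the second sum was Cd74, H2-Aa and H2-Ab1. They averaged 447, 450 and 304 CPM in KO basal and 97.3, 184 and 109 CPM in WT basal libraries. Ccr2, of the same list, averaged 163 ± 33.9 CPM in KO basal and 111 ± 61.9 CPM in WT basal libraries. Whether the 2 sums reflect separate cells was not tested.

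After IL-4 the KO and WT macrophages differed as follows, given as a description because these values prompted the list. The KO IL-4 libraries lay wholly below the WT IL-4 libraries in 4 of 10 genes, Crispld2, Fkbp5, Sgk1 (-0.83 ± 0.23) and Tsc22d3 (-0.77 ± 0.27), and wholly above them in 1 of 10, Fbxo32. Of all tested genes 10.7% lay wholly below and 9.57% wholly above, and nothing is read from this count, since the choice of the list fixed part of it. Ddit4 (-0.71 ± 0.55), Klf9 (-0.35 ± 0.23), Per1 (-0.28 ± 0.25), Zbtb16 (-0.26 ± 0.18) and Nr3c1 (0.14 ± 0.19) overlapped between the groups. The Ddit4 value became 0.05 without WT IL-4 library 3. The median was -0.53, against 0.02 over all tested genes. Summed B cell markers were closer than in basal libraries, at 412 CPM in KO IL-4 and 421 CPM in WT IL-4 libraries. Those of small macrophages, monocytes and dendritic cells were at 1824 CPM in KO IL-4 and 2262 CPM in WT IL-4 libraries. The neutrophil and monocyte genes S100a8 and S100a9 moved with Fkbp5 and Crispld2. S100a8 averaged 7.52 ± 2.52 CPM in KO IL-4 and 22.5 ± 2.51 CPM in WT IL-4 libraries (log2 -1.58 ± 0.30), and S100a9 averaged 10.8 ± 0.247 CPM in KO IL-4 and 44.4 ± 7.18 CPM in WT IL-4 libraries (-2.04 ± 0.41). They were the 2 of 6 tested neutrophil markers called lower, where 0.474% of all tested genes were called lower. The median of the 6 was -1.13, and the part of these cells was not tested.

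The effect of IL-4 itself was tested for the 8 genes other than Fkbp5 and Crispld2. In WT, 3 of 8 rose (Klf9, Per1 and Sgk1) and 0 of 8 fell, where 3.26% of all tested genes rose and 2.80% fell. Of the 8 genes, 7 had WT IL-4 libraries wholly above the WT basal libraries and 0 wholly below, against 20.8% and 19.5% of all tested genes. The median difference in WT was 1.004, against 0.00 over all tested genes. In KO, 1 of 8 rose (Per1) and 1 of 8 fell (Zbtb16), where 4.09% of all tested genes rose and 3.51% fell, and 2 of 8 were wholly above and 3 of 8 wholly below the KO basal libraries, against 18.4% and 21.2%. The median difference in KO was -0.11. Without KO basal library 1 the KO count was 0 higher and 1 lower, and without WT basal library 1 or 2 it was 2 higher and 2 lower. Among the called genes, the share that was higher was 53.8% in both genotypes, and with library totals 42.0% in KO and 65.3% in WT. The WT comparison uses the same WT basal libraries as the basal comparison between genotypes, so the low WT basal values of Klf9 and Fkbp5 enter both. Markers of other cells changed with IL-4 as well. In KO 10 of 10 B cell and 6 of 8 mast cell markers fell. In WT 5 of 10 B cell markers and 4 of 9 markers of small macrophages, monocytes and dendritic cells rose, and 3 of 8 mast cell markers fell. Their part was not tested.

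**Figure D3:**
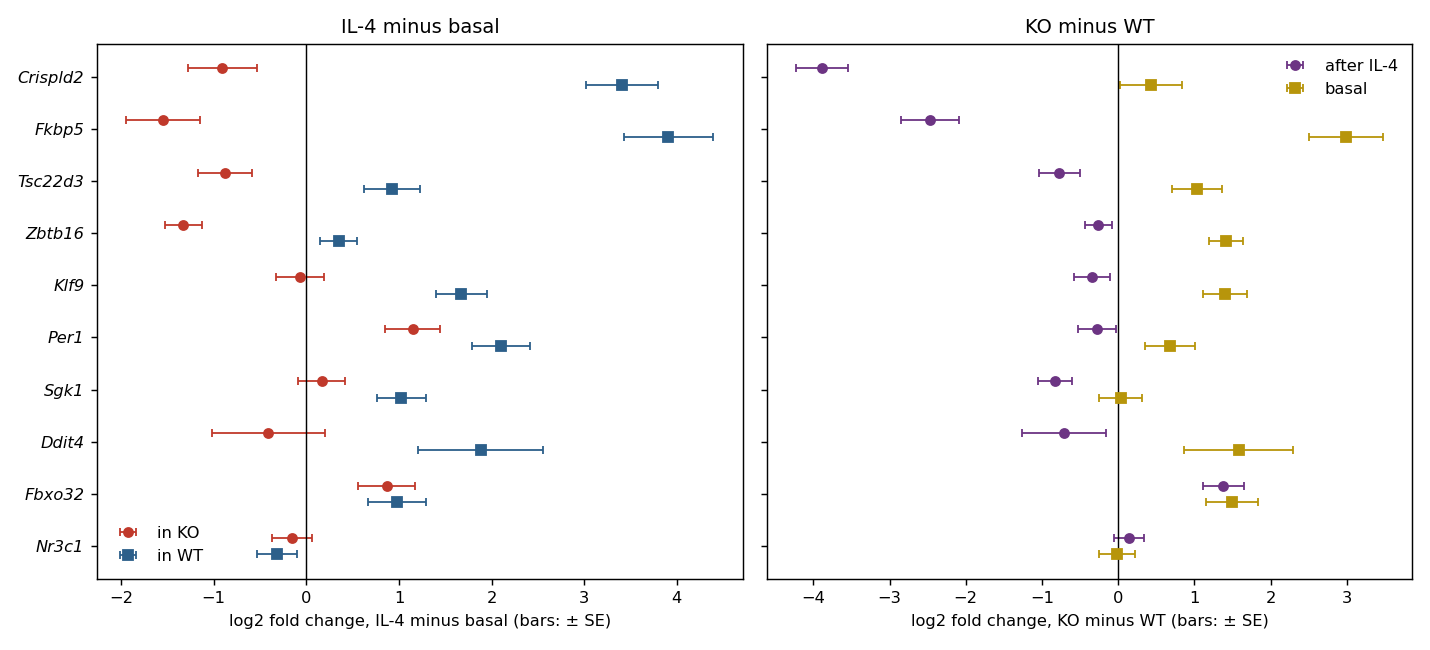
Log2 differences of the 10 genes, with bars of 1 standard error, for IL-4 minus basal in KO and in WT (left) and for KO minus WT after IL-4 and in basal macrophages (right). Fkbp5 lies at -1.55 in KO and 3.91 in WT on the left, and at -2.47 after IL-4 and 2.99 in basal macrophages on the right, while Fbxo32 is positive in all 4 and Nr3c1 stays near 0.

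The interaction asks whether KO and WT macrophages responded differently to IL-4. Of the 8 genes tested, 3 had a lower IL-4 effect in KO than in WT (Tsc22d3 -1.80 ± 0.42, Klf9 -1.74 ± 0.37 and Zbtb16 -1.68 ± 0.29) and 0 had a higher one, where 1.78% of all tested genes were lower and 1.02% higher. The count was 1 of 8 without KO basal library 2 and likewise without WT basal library 2. The median over the 8 genes was -1.32, against 0.01 over all tested genes. The share of called genes that were higher was 36.5%, 25.1% with library totals and 59.5% without the filter on low counts. The 3 genes differed in where the interaction arose: Klf9 rose in WT with no detectable change in KO, Zbtb16 fell in KO with no detectable change in WT, and Tsc22d3 passed in neither genotype alone. Markers of other cells moved with the interaction as well. Called lower were 10 of 10 B cell markers, 4 of 9 of small macrophages, monocytes and dendritic cells, 2 of 8 of mast cells, 2 of 6 of neutrophils, 1 of 9 of T and NK cells and 1 of 2 of eosinophils, and their part was not tested.

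The wider set of glucocorticoid-induced genes was taken from a list of 47 further genes, 46 of them in the table and 40 tested, of which 8 stand in another of the lists used here. In WT, 14 of 40 rose after IL-4 and 0 fell, with a median of 0.79, where 3.26% of all tested genes rose and 2.80% fell. In KO, 4 of 40 rose and 1 fell, with a median of 0.07, where 4.09% of all tested genes rose and 3.51% fell. The 2 comparisons share no library; 2 genes, Cd163 and Rhou, rose in both, which is 2 of the 14 that rose in WT and 2 of the 4 that rose in KO. The list stands for genes reported to be induced by glucocorticoids in various cells, and several members also respond to other signals. The WT count was 6 to 8 when WT basal library 1 or 2 or any 1 of the WT IL-4 libraries was left out, and the KO count of 5 in both directions was 2 without either KO basal library.

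Cd163, the haemoglobin scavenger receptor of macrophages, had 41.0, 28.6 and 34.0 CPM in KO IL-4, 32.7, 36.7 and 23.5 CPM in WT IL-4, 10.9 and 11.5 CPM in KO basal, and 4.16 and 6.34 CPM in WT basal libraries. It rose after IL-4 by 1.62 ± 0.30 in KO (edgeR quasi-likelihood test, adjusted p = 0.00394; 0.0523 without KO basal library 1) and by 2.56 ± 0.32 in WT (adjusted p = 0.000398). Rhou rose by 1.54 ± 0.29 in KO (adjusted p = 0.00463; 0.0991 without KO basal library 2) and by 2.32 ± 0.31 in WT (adjusted p = 0.000573). Nfil3, a clock-linked transcription factor, rose in KO alone past the threshold, by 1.11 ± 0.27 (adjusted p = 0.0191; 0.114 and 0.163 without KO basal library 1 and 2). IL-4 libraries of the 2 genotypes overlapped for Cd163 and Rhou.

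Cxcr4, the receptor for the chemokine CXCL12, was lowest in WT basal libraries, like Fkbp5, and its KO basal and WT IL-4 libraries overlapped at the top. It had 3.86, 3.46 and 3.93 CPM in KO IL-4, 9.14, 7.45 and 7.00 CPM in WT IL-4, 6.38 and 8.77 CPM in KO basal, and 0.944 and 1.03 CPM in WT basal libraries. It rose in KO relative to WT basal macrophages by 2.93 ± 0.47 (edgeR quasi-likelihood test, adjusted p = 0.00176) and after IL-4 in WT by 2.98 ± 0.45 (adjusted p = 0.00122), and its interaction was -3.996 ± 0.57 (adjusted p = 0.00148). Angptl4, a lipoprotein lipase inhibitor, had 1.22, 0.384 and 1.68 CPM in KO IL-4, 8.97, 6.45 and 7.52 CPM in the WT IL-4 libraries and 3.57 and 2.59 CPM in the KO basal libraries, with a single read in the 2 WT basal libraries together. Its ratio to that read was 67.6 in KO basal libraries (62 counts, 95% counting interval 11.7 to 2712) and 168 in WT IL-4 libraries (276 counts, interval 29.9 to 6660), and its basal and interaction tests had adjusted p = 0.00377 and 0.000958. All of these Cxcr4 and Angptl4 calls were kept in each fit without 1 library.

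In basal macrophages 4 of the 40 genes rose in KO relative to WT and 0 fell, with a median of 0.37, where 2.61% of all tested genes rose and 1.53% fell. Beside Cxcr4 and Angptl4 these were Cpm, the gene for carboxypeptidase M, and the Krüppel-like factor gene Klf15. Cpm had 22.2 and 21.5 CPM in the KO basal libraries and 2.08 and 2.74 CPM in the WT basal libraries, a rise of 3.17 ± 0.60 (edgeR quasi-likelihood test, adjusted p = 0.00632; 0.0535 without WT basal library 1). It fell after IL-4 in KO by 2.77 ± 0.50 on the log2 scale (adjusted p = 0.00328). Klf15 had 1.95 and 1.34 CPM in the KO basal libraries and 0 counts in the WT basal libraries, which makes it at least 11.99-fold higher against a floor of 3 counts over the group (adjusted p = 0.0389). That call held in 4 of 10 fits without 1 library, with a largest adjusted p of 0.188 without WT basal library 2, and failed also without WT basal library 1, KO basal library 1 or 2, or WT IL-4 library 1 or 2. The medians given for the list were the same with Klf15 set to that bound.

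The interaction was lower in 6 of the 40 genes and higher in 0, with a median of -0.63, where 1.78% of all tested genes were lower and 1.02% higher. The count was 3 without KO basal library 1, WT basal library 2 or WT IL-4 library 1. After Angptl4 and Cxcr4 the smallest p-values belonged to Gadd45b, a stress-induced growth arrest gene, at -2.86 ± 0.56 (edgeR quasi-likelihood test, adjusted p = 0.00969; 0.0553 without KO basal library 1). Next came Tgm2, transglutaminase 2, a marker of alternatively activated macrophages, at -2.92 ± 0.61 (adjusted p = 0.0144). Tgm2 had 3.35, 2.69 and 1.28 CPM in KO IL-4, 16.6, 10.8 and 10.4 CPM in WT IL-4, 6.27 and 4.92 CPM in KO basal, and 3.78 and 3.85 CPM in WT basal libraries. Its adjusted p was 0.0612, 0.0501 and 0.0547 without KO basal library 1, WT basal library 2 and WT IL-4 library 1. As a description, 4 of the 40 genes were called lower in KO than in WT after IL-4 and 0 higher, where 0.474% of all tested genes were called lower and 0.353% higher. They were Angptl4 (-2.80 ± 0.55), Tgm2 (-2.37 ± 0.39) and the metallothionein genes Mt2 (-1.90 ± 0.35) and Mt1 (-1.07 ± 0.22), whose similar sequences leave their split of reads uncertain. That count was 0, 1 and 2 without WT IL-4 library 1, 2 and 3.

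**Figure D4:**
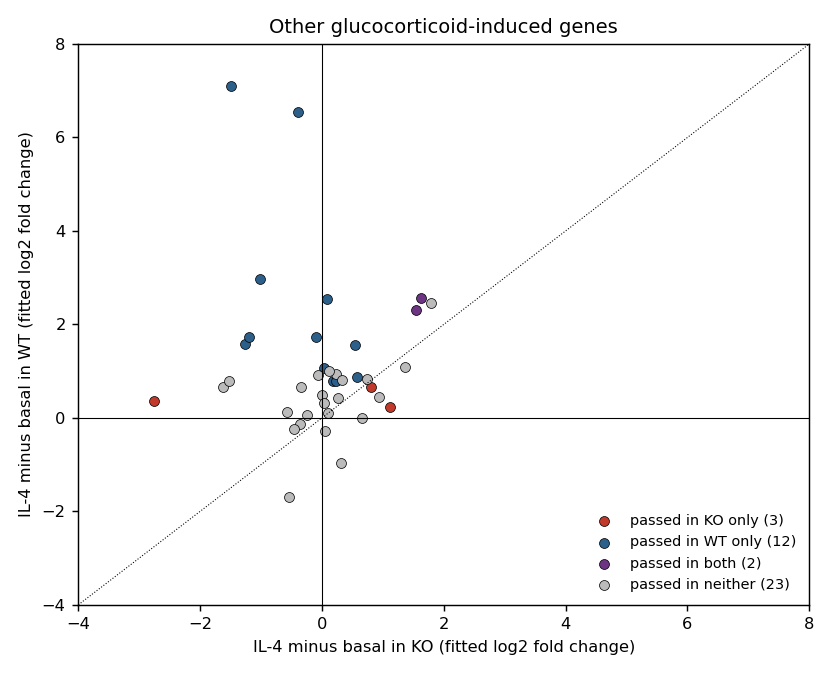
Fitted log2 difference of IL-4 minus basal in KO (horizontal axis) and in WT (vertical axis) for the 40 tested genes of the wider list, 1 point per gene, with a dotted line of equal effect; colours give in which genotype the gene passed. Of the 40 points 31 lie above the line, and the 2 highest are Angptl4 and Klf15, whose WT basal counts were 1 and 0, so their fitted height is no bound.

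Few genes of the machinery around the receptor passed the threshold. Of 15 tested chaperones and co-chaperones, Bag1, a nucleotide exchange factor for HSP70 that limits receptor activity, was the 1 that fell in KO relative to WT basal macrophages, by 1.67 ± 0.31 on the log2 scale (edgeR quasi-likelihood test, adjusted p = 0.00564). It was also the 1 that fell after IL-4 in WT, by 1.54 ± 0.27 (adjusted p = 0.00372). Of all tested genes 1.53% fell in the basal comparison and 2.80% after IL-4 in WT. After IL-4 in KO 4.09% rose, and 1.02% were higher in the interaction. Bag1 had 73.6, 59.5 and 76.8 CPM in KO IL-4, 79.3, 69.7 and 82.2 CPM in WT IL-4, 83.8 and 57.6 CPM in KO basal, and 155 and 293 CPM in WT basal libraries. Both calls were lost without WT basal library 2, the higher one (adjusted p = 0.0765 and 0.0789), and the first also without KO basal library 2 (0.0866). Its interaction of 1.53 ± 0.39 (adjusted p = 0.0490) held in 2 of 10 fits without 1 library, with a largest adjusted p of 0.272 without WT basal library 2. It was also lost without KO basal library 1 or 2, KO IL-4 library 1 or 3, or any WT IL-4 library. After IL-4 in KO, Hspa4 was the 1 of 15 that passed (0.93 ± 0.27, adjusted p = 0.0497), in 4 of 10 fits without 1 library, lost without KO basal library 1 or 2, KO IL-4 library 3 or any WT IL-4 library. The list's medians were -0.39 for KO minus WT in basal macrophages, -0.01 and -0.29 for IL-4 in KO and WT and 0.25 for the interaction. For KO minus WT after IL-4 it was -0.14 with 0 called, where Ptges3 was -0.55 ± 0.17 and Fkbp4 -0.58 ± 0.20.

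Of 15 tested coregulators, 2 rose and 0 fell after IL-4 in KO, and 1 had a higher IL-4 effect in KO than in WT by the interaction. Of all tested genes 4.09% rose and 3.51% fell after IL-4 in KO, and 1.02% were higher in the interaction. The coactivator gene Ncoa3 was among those that rose in KO, by 1.24 ± 0.31 (edgeR quasi-likelihood test, adjusted p = 0.0236; 0.147, 0.144 and 0.0742 without KO basal library 1, KO basal library 2 and KO IL-4 library 3). In WT 0 passed after IL-4, with Ep300 at 0.45 ± 0.20 and Hdac2 at -0.44 ± 0.26, and in basal macrophages 0 passed between KO and WT, with Hdac2 at -0.72 ± 0.29 and Ncoa2 at 0.64 ± 0.27. Among 6 tested genes for local steroid activation, export and the related mineralocorticoid receptor, 0 passed in any comparison. H6pd, which supplies NADPH to the cortisone-reducing enzyme, was 0.61 ± 0.26 for KO minus WT in basal macrophages (edgeR quasi-likelihood test, adjusted p = 0.220) and 0.62 ± 0.24 for IL-4 in WT (adjusted p = 0.139), with an interaction of -1.02 ± 0.33 (adjusted p = 0.129). The exporter gene Abcb1b had 31.4 ± 4.95 CPM in KO IL-4, 14.3 ± 1.97 CPM in WT IL-4, 19.5 ± 5.73 CPM in KO basal and 24.7 ± 17.4 CPM in WT basal libraries. The mineralocorticoid receptor gene Nr3c2 had 6.48 ± 3.89 CPM in KO IL-4, 2.46 ± 0.469 CPM in WT IL-4, 2.74 ± 0.713 CPM in KO basal and 2.48 ± 0.235 CPM in WT basal libraries.

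Several inflammatory genes that glucocorticoids are known to repress rose after IL-4 in each genotype. Of 17 tested, 6 rose in KO and 5 in WT and 0 fell in either, with medians of 1.14 in KO and 1.63 in WT. Of all tested genes 4.09% rose in KO and 3.26% in WT. In the interaction and in the basal comparison of KO with WT 0 of the 17 passed. Il6 had 16.1, 40.6 and 38.4 CPM in KO IL-4, 15.6, 21.3 and 14.3 CPM in WT IL-4, 3.46 and 2.42 CPM in KO basal, and 1.79 and 1.46 CPM in WT basal libraries. It rose by 3.44 ± 0.44 in KO and 3.39 ± 0.45 in WT (edgeR quasi-likelihood test, adjusted p = 0.000190 and 0.000573), in each of the 10 fits without 1 library. The chemokine gene Ccl3 rose by 2.67 ± 0.65 in KO and 2.78 ± 0.59 in WT (adjusted p = 0.0192 and 0.0112). The KO call was lost without KO basal library 1 or 2 (0.130 and 0.120) and the WT call without WT basal library 1 (0.0804). Cxcl1 rose in KO by 2.06 ± 0.41 (adjusted p = 0.00569; 0.0991 without KO basal library 2) and in WT by 1.62 ± 0.39 (adjusted p = 0.0236; 0.0644 to 0.134 without WT basal library 1 or 2 or WT IL-4 library 1 or 2). Il1a rose in KO by 1.78 ± 0.47 (adjusted p = 0.0307; 0.110 to 0.188 without KO basal library 1 or 2 or KO IL-4 library 1) and in WT by 2.44 ± 0.50 (adjusted p = 0.00948; 0.106 without WT basal library 2). Cxcl2 rose in WT by 2.23 ± 0.50 (adjusted p = 0.0221; 0.172 and 0.0739 without WT basal library 1 and 2). Ptgs2 had 155 counts in the KO IL-4 libraries and 0 in the KO basal libraries, at least 29.9-fold higher (adjusted p = 0.0215; 0.126 and 0.157 without KO basal library 1 and 2). In basal macrophages Ptgs2 had 0 counts in KO and 30 and 0 in WT libraries 1 and 2, and Il12b had 0 counts in KO and 27 and 1 in WT libraries 1 and 2. Neither passed (adjusted p = 0.111 and 0.130), and without WT basal library 1 both groups lie under the floor of 3 counts. As a description, Ptges, the prostaglandin E synthase gene, was the 1 of 17 called lower in KO than in WT after IL-4 (-1.56 ± 0.29). Of all tested genes 0.474% were called lower in that comparison. It had 4.57, 5.22 and 4.41 CPM in the KO IL-4 libraries and 16.1, 14.6 and 11.3 CPM in the WT IL-4 libraries.

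Clock genes other than Per1 mostly did not pass. Of 17 tested, Nfil3 in KO after IL-4 (above) was the 1 call in any comparison, where 4.09% of all tested genes rose. The list's medians were 0.45 for KO minus WT in basal macrophages, -0.05 for IL-4 in KO and 0.23 for IL-4 in WT. The nuclear receptor gene Nr1d2 (1.79 ± 0.54) and the repressor gene Bhlhe40 (-0.83 ± 0.24) had the smallest p-values in basal macrophages (edgeR quasi-likelihood test, adjusted p = 0.0779 and 0.0634), and Bhlhe40 in the interaction (1.16 ± 0.30, adjusted p = 0.0539). As a description, Per2, the paralogue of Per1, had 0.812, 0.154 and 1.52 CPM in the KO IL-4 libraries and 6.01, 4.19 and 6.18 CPM in the WT IL-4 libraries. Its basal values were 1.84 and 2.95 CPM in KO and 3.78 and 2.57 CPM in WT, and Per3 was 1.18 ± 0.33 higher in KO than in WT after IL-4. Per2, which is also in the wider list, did not pass in any tested comparison.

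Few of the FOXO factors and their targets, the pathway that Fbxo32 and Sgk1 also belong to, passed the threshold. Of all tested genes 2.61% rose in KO relative to WT basal macrophages, and 1.78% were lower in the interaction. After IL-4 4.09% rose and 3.51% fell in KO, and 3.26% rose and 2.80% fell in WT. Of 18 tested, 1 rose in KO relative to WT basal macrophages, Pik3ip1, an inhibitor of PI3 kinase, by 2.24 ± 0.49 (edgeR quasi-likelihood test, adjusted p = 0.0166; 0.0868, 0.0913 and 0.0512 without KO basal library 1, WT basal library 1 and WT basal library 2). It had 7.31, 6.53 and 7.61 CPM in KO IL-4, 15.5, 11.9 and 4.63 CPM in WT IL-4, 14.7 and 12.3 CPM in KO basal, and 2.27 and 3.43 CPM in WT basal libraries. Its order of group means differed from that of Fkbp5 in having KO basal first. After IL-4 the insulin receptor gene Insr rose in KO by 0.99 ± 0.25 (adjusted p = 0.0266; 0.233, 0.0829 and 0.0523 without KO basal library 1, KO basal library 2 and KO IL-4 library 1). In WT it rose by 1.10 ± 0.25 (adjusted p = 0.0184; 0.0913, 0.106, 0.0559 and 0.0821 without WT basal library 1, WT basal library 2, WT IL-4 library 2 and WT IL-4 library 3). Klf2, a quiescence factor, fell in KO by 0.97 ± 0.20 on the log2 scale (adjusted p = 0.00801; 0.0598 and 0.0654 without KO basal library 1 and 2). Pik3ip1 rose in WT by 1.90 ± 0.46 (adjusted p = 0.0227; 0.141, 0.0737, 0.0884 and 0.0727 without WT basal library 1, WT basal library 2, WT IL-4 library 1 and WT IL-4 library 2). The interaction of Pik3ip1 was -2.82 ± 0.61 (adjusted p = 0.0195; 0.0709, 0.0702 and 0.0614 without KO basal library 1, WT basal library 1 and WT IL-4 library 1). As a description, 0 of 18 were called between KO and WT after IL-4, where Irs2 was 0.64 ± 0.39 and Pik3ip1 -0.58 ± 0.37.

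Of 7503 genes that averaged 10 CPM or more, those most like Fkbp5 over the 10 libraries were Ppl, Cbr2, Hal, Slc27a1 and S100a9, whose centred log2 CPM differed from that of Fkbp5 by a root mean square of 0.80, 0.86, 0.89, 0.96 and 0.97. Ppl, which encodes the cytolinker periplakin, averaged 9.26 CPM in KO IL-4, 26.0 CPM in WT IL-4, 32.5 CPM in KO basal and 7.42 CPM in WT basal libraries. Hal, histidine ammonia-lyase, averaged 110.3 CPM in KO IL-4, 232 CPM in WT IL-4, 132 CPM in KO basal and 52.6 CPM in WT basal libraries. Within the 10 genes, Crispld2 ranked 16th, Klf9 22nd, Per1 56th, Tsc22d3 145th and Sgk1 173rd in likeness to Fkbp5. Zbtb16 ranked 614th, Fbxo32 2746th and Nr3c1 4721st, and Ddit4 was not ranked. The genes most like Crispld2 were Ttc39c, Rcn3, S100a9, Fcgr4 and Fpr2, at 0.57, 0.86, 0.89, 0.96 and 0.96. Ttc39c averaged 3.67 CPM in KO IL-4, 24.5 CPM in WT IL-4, 3.35 CPM in KO basal and 4.40 CPM in WT basal libraries. The genes named as most like Fkbp5 or Crispld2 were picked over these same libraries, so shared highs and lows follow from the choice. Fkbp5 ranked 10th, Sgk1 44th, Per1 223rd, Klf9 236th and Tsc22d3 288th in likeness to Crispld2. Zbtb16 ranked 3879th, Nr3c1 5005th and Fbxo32, the gene that was higher in KO after IL-4, 7339th of 7503. Fkbp5 and Crispld2 were both chosen for low values in KO IL-4 libraries, which fixed part of their likeness to each other. S100a9, near both genes, averaged 10.8 CPM in KO IL-4, 44.4 CPM in WT IL-4, 19.3 CPM in KO basal and 12.4 CPM in WT basal libraries. As a description, the difference between IL-4 and basal libraries in WT was 1.84 ± 0.48 for S100a9 and 1.69 ± 0.35 for S100a8. Their interactions were -2.67 ± 0.65 and -2.64 ± 0.48. No test is read from these values, since S100a9 was picked for its likeness over the same libraries. The S100a9 values depended on single libraries, most of all WT basal library 1 and KO basal library 1. The summed neutrophil markers were 155 ± 29.2 CPM in KO IL-4, 205 ± 21.04 CPM in WT IL-4, 224 ± 58.4 CPM in KO basal and 308 ± 74.7 CPM in WT basal libraries, a different order. Most of that sum was Csf3r, at 125 ± 24.9 CPM in KO IL-4, 116 ± 18.3 CPM in WT IL-4, 174 ± 41.1 CPM in KO basal and 281 ± 55.9 CPM in WT basal libraries.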

How the data were processed

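RNA of sorted peritoneal cavity macrophages was sequenced as polyA libraries. The authors deposited read counts per gene and library; per the submitters' processing notes the build was mm10 and the tools were STAR and HTSeq, and versions and strand setting are not given in the sources used here. Counts were used as deposited, at 8762403 to 15024073 per library; of 22165 identifiers, 420 had no symbol and 7409 were 0 in all libraries. Symbols and coordinates came from GENCODE M21.

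With edgeR 4.0.16 (R 4.3.3), counts were TMM-scaled and filtered (minimum count 10, total 15), which left 11614 genes. A robust quasi-likelihood model with 4 group means (6 residual degrees of freedom, biological coefficient of variation 28.4%) gave 5 contrasts, two-sided, adjusted by Benjamini-Hochberg over all tested genes with a threshold of 0.05. Alternatives were library totals, RLE size factors, no filter, no robust estimation, DESeq2 1.42.0, a replicate block and leaving out each library, where a group left with 1 library was assumed to vary like the others. The procedure was tested on simulated data. Ratios to 0 counts use a floor of 3 counts over the group; these and the 95% intervals cover counting error only.

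The 10 genes, the 7 pathway lists and the 8 cell type lists were chosen with earlier results of these data known. Named list genes are up to 4 called genes with the smallest p per contrast, or 2 given as values where none passed, with some of the latter left out. Likeness is the root mean square difference of log2 CPM profiles centred on their means. Genes called in cell type lists use the same threshold. Tests are not independent where comparisons share libraries. The level of the targeted gene and the values of a coregulator are not reported here.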

Additional observations from a re-analysis of the deposited data

Results flagged for a closer look

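For 3 genes the IL-4 effect differed between KO and WT by the interaction test, which was adjusted over all tested genes (edgeR). The IL-4 effect in KO minus that in WT was -1.80 for Tsc22d3, -1.74 for Klf9 and -1.68 for Zbtb16 on the log2 scale. Of 10 fits without 1 library, the call held in 4 for Tsc22d3, 8 for Klf9 and 10 for Zbtb16. For Fkbp5 (-5.46) and Crispld2 (-4.32) the IL-4 libraries lay wholly below the basal libraries in KO and wholly above them in WT. Of all tested genes 21.2% lay wholly below in KO and 20.8% wholly above in WT. The Crispld2 difference in KO was -0.91 ± 0.37, with 1.68 to 3.05 CPM in KO IL-4 and 3.89 to 4.83 CPM in KO basal libraries. For Fkbp5 and Crispld2 nothing was tested or is read from these values, because their values after IL-4 prompted the list.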

How the results depend on the processing

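Genes called over the whole table, with their counts for KO against WT after IL-4, KO against WT basal, IL-4 in KO, IL-4 in WT and the interaction, were 96, 481, 883, 704 and 326. Without the filter they were 505, 1034, 1423, 1209 and 819, and with DESeq2 396, 895, 1371, 1185 and 623. Without 1 library they ranged over 21 to 129, 208 to 550, 327 to 931, 302 to 764 and 182 to 397. Members called in the last 4 of these comparisons were 4, 2, 3 and 3, with ranges of 2 to 4, 1 to 4, 2 to 3 and 1 to 3, and both without the filter and with DESeq2 they were 4 for IL-4 in KO and 5 for IL-4 in WT. Genes of the wider list called were 4, 4, 5, 14 and 6, with ranges of 0 to 5, 3 to 5, 2 to 6, 6 to 15 and 3 to 7; KO against WT after IL-4 gave 8 without the filter and 8 with DESeq2, and IL-4 in KO gave 8 with DESeq2. The cause was not tested.

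Same-numbered libraries did not deviate together (correlations of deviations from group means from -0.11 to 0.062), so the numbers were not read as pairs. With the replicate block, genes called for IL-4 in KO were 554, and Sgk1 after IL-4 in WT had a log2 difference of 1.03 and an adjusted p of 0.0691. Library totals in place of TMM moved the median of all genes by 0.13 in the basal comparison, -0.10 for IL-4 in KO and -0.17 in the interaction, and turned Nr3c1 to 0.14 in the basal comparison and -0.022 in the interaction. Sgk1 in the basal comparison was -0.014 without the filter. Without 1 library, values that had not passed ranged across 0 for Nr3c1 (-0.16 to 0.13) and Sgk1 (-0.13 to 0.22) in the basal comparison, Klf9 for IL-4 in KO (-0.46 to 0.48) and Fbxo32 in the interaction (-0.88 to 0.36). Of 300 values of single members under the other settings 285 kept their direction and, where tested, their side of the threshold. Of the 300, 11 newly passed, 1 no longer did and 3 reversed direction. Of 500 without 1 library 459 were classed as the same, 20 no longer passed, 8 newly passed, 8 reversed direction and 5 were classed as moved in value. Values given as descriptions were not judged by the threshold, so crossings of it by Fkbp5 or Fbxo32 there are not in these counts. Low counts, as for Ddit4 and Crispld2, limit how small a difference could be seen.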
